A study of Homo sapiens with 3 samples.

Results

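SLIT2, a gene of 368657 bp on the plus strand of chromosome 4 (chr4:20251905-20620561, hg38), held 273 of the 48938 distinct peaks of RNA crosslinked to HA-tagged HNRNPA0. Its peaks were the lines whose name carried the Ensembl ID ENSG00000145147, which gave 86, 83 and 104 peaks in replicates 1, 2 and 3. The libraries were 3 easyCLIP replicates, an assay that joins RNA to its bound proteins with UV light, pulls down 1 protein and sequences the RNA left on it, made for a study of proteins at RNA G-quadruplexes. They formed 1 group of wild-type HEK293T cells, an embryonic kidney line, that received 750 ng of an HA-HNRNPA0 expression vector per 15 cm plate and were irradiated at 254 nm with 0.3 J/cm2. The protein was thus tagged and supplied from a vector in every library, no other condition or control library was used here, and nothing in the labels says that the replicates came from separate cultures. Replicates differ here only by the spread between these libraries.

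SLIT2 encodes a large secreted protein that binds ROBO receptors on growing axons and migrating cells and is known mostly as a repellent cue at the midline of the nervous system, with further roles in kidney development. Its pre-mRNA is long, its exons make up a small part of it, and the microRNA gene MIR218-1 lies within it. HNRNPA0 belongs to the A/B family of hnRNPs, which coat nuclear RNA, and is known to bind AU-rich stretches. The number at the end of each peak's name is read as the reads in that peak and is called its read number. SLIT2 was chosen by its number of peaks and its recurrent regions in these lists, so these numbers are descriptions and were not tested. The annotation used here gave gene intervals without exons, so no peak was assigned to an exon, an intron or a UTR. RNA levels were not measured here, so a count of peaks does not separate binding from the abundance of the RNA.

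The mature microRNAs of MIR218-1 are shown because their hairpin, at chr4:20528275-20528384 on the plus strand, is the best known RNA element inside SLIT2 and held no peak in any replicate. The sequences are those of RefSeq on GRCh38.p14, 5' to 3', with the seed (bases 2 to 8) in capitals.
hsa-miR-218-5p: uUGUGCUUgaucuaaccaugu
hsa-miR-218-1-3p: aUGGUUCCgucaagcaccaugg
The 5p form lies at chr4:20528299-20528319 and the 3p form at chr4:20528342-20528363. The same 5p sequence is also made from MIR218-2 on chromosome 5, which lies inside SLIT3, and miR-218 is known to repress ROBO1. The SLIT2 peaks nearest to the MIR218-1 hairpin ended 4.41 kb before it, in replicate 3, and began 6.50 kb after it, in replicate 2. The hairpin starts 276 kb from the start of the gene, in the 3' part of SLIT2, which held few peaks.

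Peaks were spread over the whole gene but thinned out from its 5' to its 3' end. The first 50% of SLIT2 held 72, 69 and 90 peaks in replicates 1, 2 and 3, and the rest held 14 in each. In each list 50% of SLIT2 peaks lay within 80.3, 84.6 and 81.9 kb of the start, which is 22.3% ± 0.595 of the gene (SD, n = 3). The outermost peaks came close to both ends in 2 of the replicates. The first peak was centred 1.92, 12.4 and 1.69 kb from the start, and the last one 1.31, 1.72 and 1.55 kb from the end.

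In steps of 50 kb from the start, the first step held 25, 20 and 30 peaks and the second, from 50 to 100 kb, held 27, 26 and 29. The third step held 10, 19 and 21 peaks, and the fourth held 13, 4 and 12. Between 200 and 250 kb there were 5, 4 and 3, between 250 and 300 kb 3, 7 and 5, and beyond 300 kb 3, 3 and 4. In every list the first 2 steps were the fullest, and each step beyond 200 kb held 7 peaks or fewer. The summed read numbers were also lower toward the 3' end. Of 10 equal segments of the gene, the second held 106, 92 and 104 reads in replicates 1, 2 and 3, and the last held 4, 5 and 14. The third, which includes the highest peaks, near 77.2 kb, held 101, 76 and 137.

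**Figure D1:**
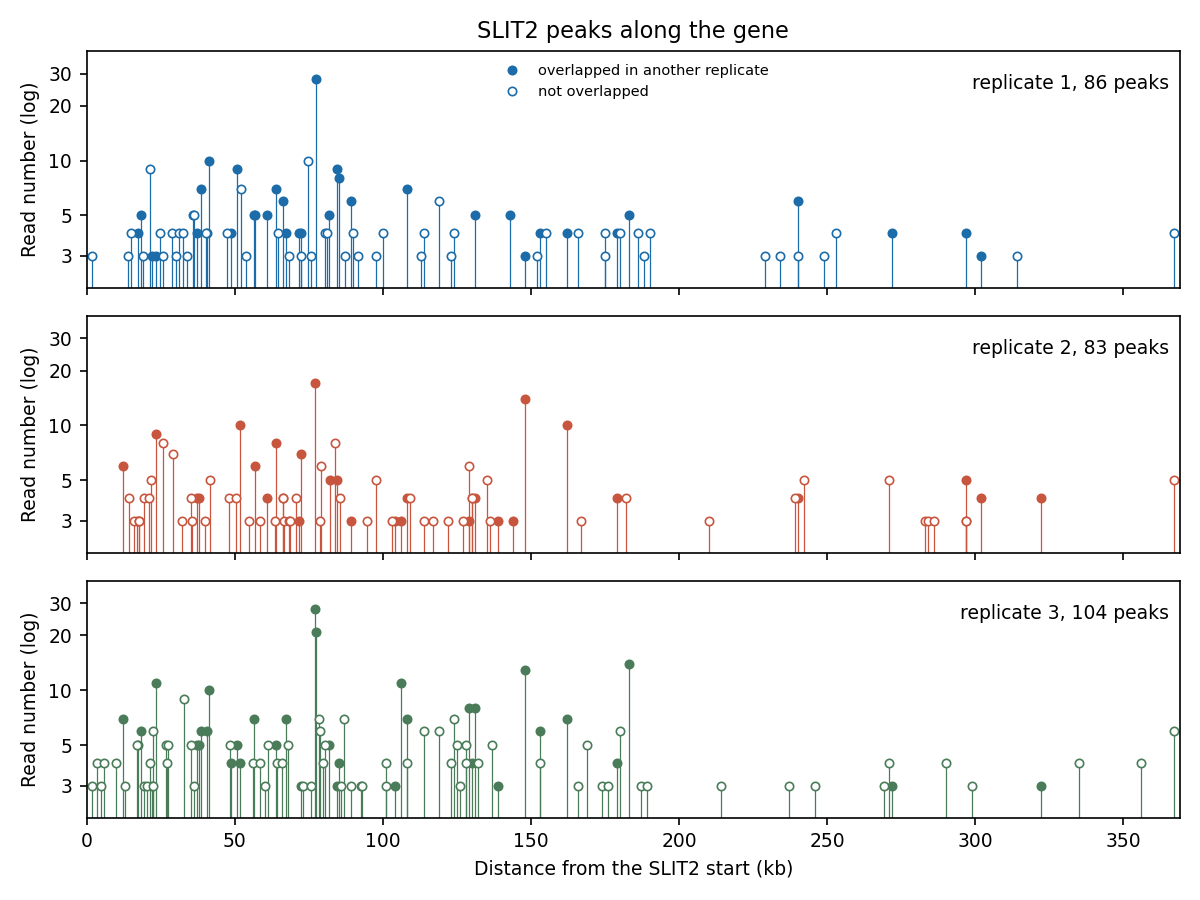
Each SLIT2 peak by its distance from the start of the gene (kb, horizontal) and its read number (log scale, vertical), with 1 panel per replicate. Filled points are peaks overlapped by a peak of another replicate and open points are not. Most of the 86, 83 and 104 peaks lie on the left, and the highest, near 77.2 kb, recurs in every panel.

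Pooled over other long genes, peaks lay more often toward the 3' end. In 1478 other protein-coding genes of 100 kb or more that held a peak, the final 10% of the gene held 32.4%, 34.3% and 28.4% of peaks in replicates 1, 2 and 3. In SLIT2 it held 1.16%, 1.20% and 2.88%. SLIT2 averaged 1.75% ± 0.982 and the other genes 31.7% ± 3.00 (SD, n = 3 each). The share was lower in SLIT2 in 3 of 3 replicates, with an exact paired permutation p of 0.25 (two-sided), which is the smallest that 3 pairs can give. The first 50% of the gene held 84.5% ± 1.82 of the peaks in SLIT2 and 37.9% ± 4.47 in the other genes (SD, n = 3 each), higher in SLIT2 in 3 of 3 replicates (exact paired permutation p = 0.25). The first 10% held 20.4% ± 2.08 in SLIT2 and 10.0% ± 1.65 in the others (SD, n = 3 each), with the same exact permutation p of 0.25.

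**Figure D2:**
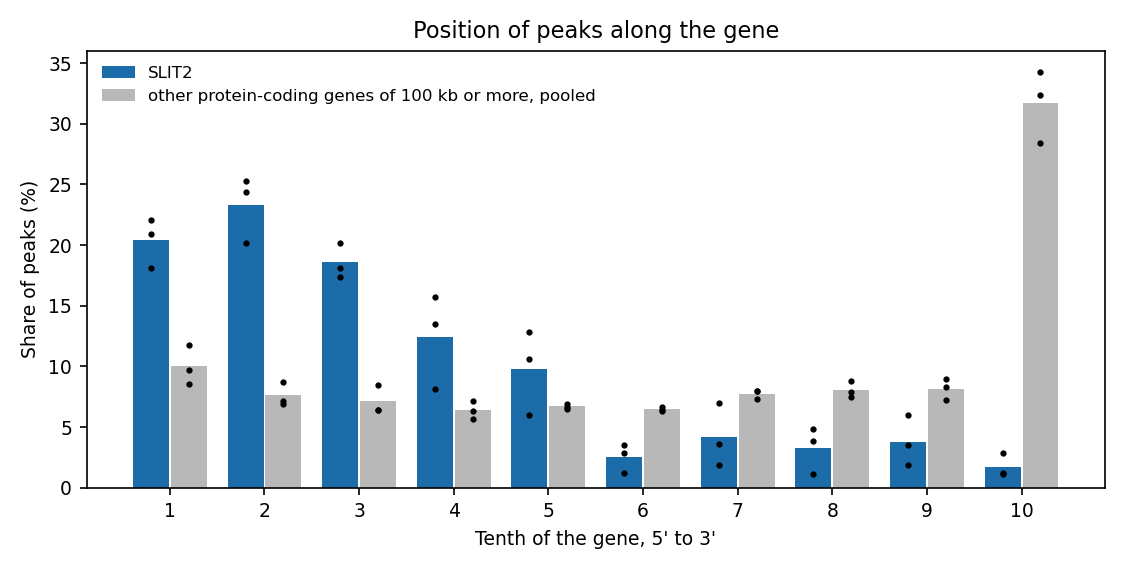
Share of peaks (%, vertical) in each of 10 equal segments of the gene from 5' to 3' (horizontal) for SLIT2 and, pooled, for other protein-coding genes of 100 kb or more. Bars are means of 3 replicates and points are the replicates. In SLIT2 the second segment is the fullest, at 23.3%, and the last holds 1.75%, while in the other genes the last holds 31.7%.

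A low share in the final 10% and a 5' excess were not found in SLIT2 alone. Positions in all genes are within RefSeq gene intervals, and the transcripts made in these cells were not examined. Over all lists the final 10% held 1.83% of SLIT2 peaks, against a median of 13.8% in 84 other genes of 100 kb or more with at least 30 peaks, of which 9 were below SLIT2. Named genes with low shares there were EIF4G3 with 1.49%, NCKAP1 with 2.38% and USP9X with 3.45%. Of the same 84 genes, 10 had a larger share of peaks in their first 50% than the 84.6% of SLIT2 over all lists, and the median was 43.6%. SLIT2 held 27.3 ± 1.53 peaks between 50 and 100 kb and 5.00 ± 2.00 between 250 and 300 kb (SD, n = 3). In 302 other protein-coding genes of 300 kb or more with a peak, the number per gene was 0.423 and 0.209 in the same steps, as means of 3 replicates. The number per 50 kb was thus lower far from the start in both. SLIT2 was chosen by its number of peaks, so nothing is read from its higher number at each of the 6 steps compared.

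Neighbouring SLIT2 peaks lay a median of 1882, 1813 and 1594 bp apart in replicates 1, 2 and 3, centre to centre. The middle 50% of gaps ran from 1105 to 4402 bp in replicate 1, from 1026 to 3914 bp in replicate 2 and from 757 to 3738 bp in replicate 3. Gaps under 1 kb made up 24.7%, 25.6% and 33.0%, and 7, 9 and 8 gaps were of 10 kb or more. The spacing was therefore uneven, and the SD of the gaps was 1.79, 1.71 and 1.50 times their mean. The widest gaps were 53.2 kb in replicate 1, from 314 to 367 kb after the start, 45.2 kb in replicate 2, from 322 to 367 kb, and 25.3 kb in replicate 3, from 189 to 214 kb. Replicates 1 and 2 thus shared a nearly empty stretch before the 3' end, which in replicate 3 held a few peaks.

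Counted in 37 steps of 10 kb, SLIT2 held a peak of every replicate in 22 steps, of 2 replicates in 5, of 1 in 9 and of none in 1. The fullest step, from 60 to 70 kb, held 6, 8 and 7 peaks in replicates 1, 2 and 3. From 10 to 150 kb every step held a peak of every replicate. Across the 37 steps, Spearman's rho for the number of peaks was 0.68 for replicate 1 with 2, 0.75 for 1 with 3 and 0.74 for 2 with 3. These run over neighbouring steps of 1 gene in libraries that were pooled after the first adapter ligation, and they carry no test.

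Most SLIT2 peaks were weak. The smallest read number listed, 3, was held by 27, 35 and 33 peaks, one of 4 to 5 by 44, 34 and 43, one of 6 to 9 by 12, 10 and 21, and one of 10 or more by 3, 4 and 7. The median was 4 in each replicate, the same as over all nuclear-encoded peaks of each list. In the other protein-coding genes of 100 kb or more, pooled, it was 3 in each replicate. The read numbers of SLIT2 summed to 402, 373 and 538, which is 0.416% ± 0.0491 of those of all nuclear-encoded peaks (SD, n = 3), while its peaks were 0.559% ± 0.0251 of the nuclear-encoded peaks. Together the peaks of 1 list covered 1.41% to 1.88% of the gene.

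Peaks at the lowest read number were less common in SLIT2 than in the other long genes. They made up 35.1% ± 6.13 of peaks in SLIT2 and 56.9% ± 1.45 in the other genes of 100 kb or more (SD, n = 3 each). The share was lower in SLIT2 in 3 of 3 replicates. Read numbers come from the same peaks by which SLIT2 was chosen, so this share is a description. Peaks at this read number were also narrower, with a median width of 46, 40 and 40 nt in SLIT2 and 59, 58 and 60 nt in the other genes. These peaks were picked by read number and had passed the p-value limit of the lists, so their widths are a description too. The widest peak with a read number of 3 measured 80, 75 and 78 nt in SLIT2, against 126, 127 and 129 nt in the others. The median deposited p-value at this read number was 0.0318 ± 0.00150 in SLIT2 and 0.0222 ± 0.000619 in the others (SD, n = 3 each). Of peaks with a read number of 3, none in SLIT2 was wider than 80 nt, against 9.03% ± 0.192 in the others (SD, n = 3). The lists hold only peaks under a p-value of 0.05. How far that limit sets these widths or the share of weak peaks was not tested. Over all read numbers the median width was 62.2 ± 4.19 nt in SLIT2 and 64.7 ± 1.53 nt in the other genes (SD, n = 3 each), a mean difference of -2.50 nt with an SD of 4.27 over the replicates (exact paired permutation p = 0.500).

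The weak peaks of SLIT2 seldom recurred and its strongest nearly always did. At a read number of 3, 4 of 27, 8 of 35 and 7 of 33 peaks shared at least 1 bp, on the same strand, with a peak of another replicate. At 4 to 5 these were 20 of 44, 14 of 34 and 11 of 43. At 6 to 9 they were 9 of 12, 5 of 10 and 11 of 21, and at 10 or more 2 of 3, 4 of 4 and 7 of 7. In all, 40.7%, 37.3% and 34.6% of the SLIT2 peaks of replicates 1, 2 and 3 were overlapped by a peak of another list, where 36.3% of all nuclear-encoded peaks were. Recurrence was part of what the choice of SLIT2 rested on, so nothing is read from that pair of values.

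At matched read numbers, the overlapped share was 19.6% ± 4.25 in SLIT2 and 13.3% ± 2.90 in the other long genes at a read number of 3, and 37.4% ± 10.5 and 29.9% ± 2.17 at 4 to 5 (SD, n = 3 each). At 6 to 9 it was 59.1% ± 13.8 in SLIT2 and 58.8% ± 2.37 in the others. At 10 or more it was 88.9% ± 19.2 in SLIT2 and 84.0% ± 2.03 in the others. Over all other nuclear-encoded peaks it was 16.7% at a read number of 3 and 34.5% at 4 to 5. For those peaks it was 60.4% at 6 to 9 and 86.7% at 10 or more, so it rose with read number there too. Overlap was among the values that chose SLIT2, so these shares are a description. SLIT2 also held more peaks per length than any of the other long genes, and the part of that in the overlap was not tested. Averaged over the 6 ordered pairs of lists, 25.8% of SLIT2 peaks of one list were overlapped by another, against 16.5% in the other long genes and 25.7% over all other nuclear-encoded peaks.

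**Figure D3:**
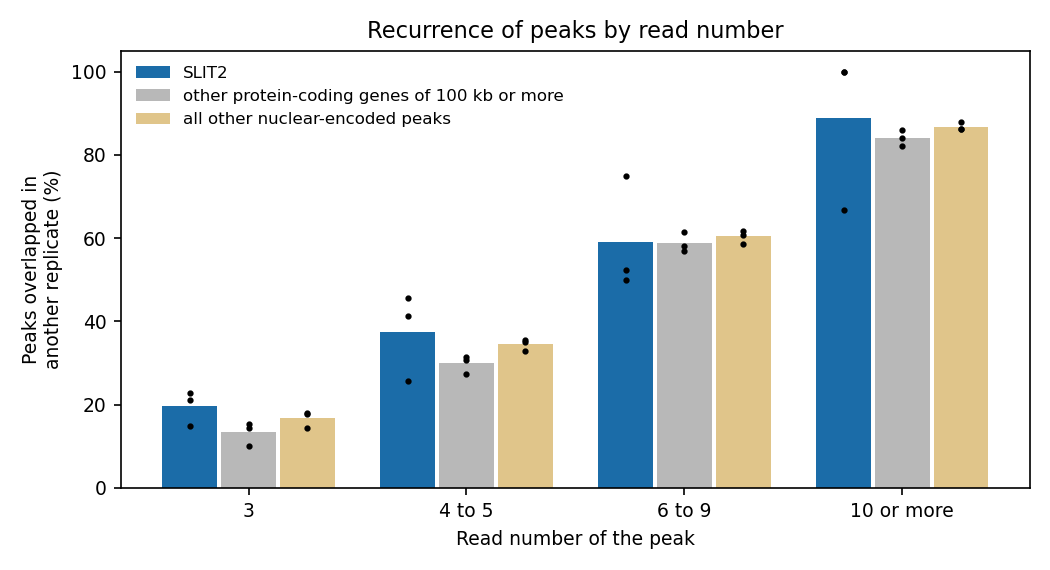
Share of peaks overlapped by a peak of another replicate (%, vertical) by read number of the peak (horizontal), for SLIT2, other protein-coding genes of 100 kb or more and all other nuclear-encoded peaks. Bars are means of 3 replicates and points are the replicates. In SLIT2 the share is 19.6% at a read number of 3 and 88.9% at 10 or more. Over all other nuclear-encoded peaks it is 16.7% and 86.7%.

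Peaks of SLIT2 that were not overlapped seldom lay within 100 nt of a peak of the other list. Over all ordered pairs of lists there were 406 such cases, with a median distance of 669 nt to the nearest SLIT2 peak of the other list. Only 31 of them, or 7.64%, lay within 100 nt, and 163, or 40.1%, lay over 1000 nt away. Most peaks of one list thus had no peak of the other at the same place, although 22 of the 37 steps of 10 kb held a peak of every replicate.

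Merging overlapping peaks of the 3 lists gave 215 regions in SLIT2, with 171 seen in a single replicate, 31 in 2 and 13 in every one. The 13 are 6.05% of its regions, beside 6.14% over all nuclear-encoded regions, and regions of 2 or more replicates are 20.5% beside 18.8%. SLIT2 was chosen with this number of regions known, so nothing is read from either pair. All 13 lay in the first 50% of the gene, from 17.2 to 179 kb after the start. In the rest lay 5 of the 31 regions of 2 replicates and 32 of the 171 of 1 replicate. The first 50% held 84.6% of all SLIT2 peaks, and the difference between these sets of regions was not tested. Neighbours among the 13 were between 2.70 and 26.7 kb apart. The 40 peaks in them were 14.7% of all SLIT2 peaks and held 23.3% of its reads.

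The strongest region, chr4:20329014-20329258, was centred 77.2 kb after the start. Its highest peaks had read numbers of 28, 17 and 28 in replicates 1, 2 and 3, and in replicate 3 it consisted of a pair of peaks that touch end to end, with 28 and 21 reads. It was the highest SLIT2 peak of every list, with deposited p-values of 7.3e-25, 1.9e-12 and 1.1e-25. No other region of SLIT2 reached a read number of 10 in all 3 replicates.

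The region at chr4:20400264-20400442, 148 kb after the start, had read numbers of 3, 14 and 13. That at chr4:20275122-20275209, 23.3 kb after the start, had 3, 9 and 11. In both, replicate 1 lay at the lowest value listed while replicates 2 and 3 were at 9 or more. The region at chr4:20413392-20413501, 162 kb after the start, had 4, 10 and 7, again lowest in replicate 1.

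The region at chr4:20336510-20336584, 84.6 kb after the start, went the other way, with 9, 5 and 3. That at chr4:20324251-20324392, at 72.4 kb, had 4, 7 and 3, and it is the only 1 of the 13 whose peaks share no base over all 3 lists, since peaks of replicates were linked through each other. The order of the replicates thus changed from region to region.

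Other regions varied less. The region at chr4:20315687-20315803, 63.8 kb after the start, had read numbers of 7, 8 and 5. That at chr4:20359837-20359947, at 108 kb, had 7, 4 and 7, and that at chr4:20382869-20383003, at 131 kb, had 5, 4 and 8. In 4 of the 13 no value was above 5. The lists hold no read number under 3, so the values of these 4 could differ little. The region at chr4:20333798-20333890, at 81.9 kb, had 5, 5 and 5, and that at chr4:20431267-20431358, the last of the 13 at 179 kb, had 4, 4 and 4. That at chr4:20269037-20269116, at 17.2 kb, had 4, 3 and 5, and that at chr4:20289008-20289103, at 37.2 kb, had 4, 4 and 5. In these last 2 the highest peaks of the 3 lists shared 3 and 2 nt, so the overlap there is slight, while 10 of the 13 shared 20 nt or more.

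**Figure D4:**
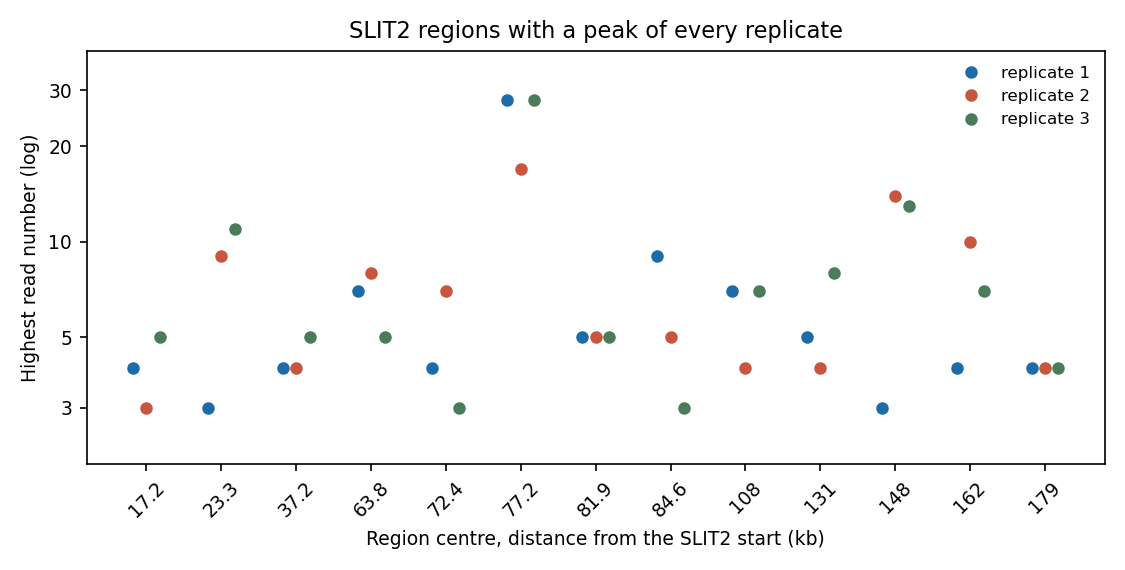
Highest read number (log scale, vertical) in each replicate for the 13 SLIT2 regions with a peak of every replicate, evenly spaced and ordered by the distance of their centre from the start of the gene (kb, horizontal). The region at 77.2 kb stands above the rest with 28, 17 and 28, and 4 of the 13 have no value above 5.

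Some fairly high peaks did not recur. The highest peak found in 1 replicate alone, at chr4:20326464-20326592, had a read number of 10 in replicate 1 and lay 74.6 kb after the start, shortly before the strongest region. The next had 9 in replicate 1, at chr4:20273122-20273250, and 9 in replicate 3, at chr4:20284882-20285006. Of the 31 regions of 2 replicates, 9 joined replicates 1 and 2, 13 joined replicates 1 and 3, and 9 joined replicates 2 and 3, so no pair of lists supplied most of them.

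Among protein-coding genes of 100 kb or more, SLIT2 held the most peaks, and it also did so per length. It averaged 91.0 ± 11.4 peaks (SD, n = 3), or 24.7 peaks per 100 kb, against a median of 1.67 peaks and 0.824 peaks per 100 kb over the 1478 other such genes with a peak. RefSeq lists 3356 protein-coding genes of this length, of which 44.1% held a peak in any replicate and 7.60% held a region of all 3 replicates. By length SLIT2 was number 219 among those with a peak, and by mean highest read number, 24.3 ± 6.35, number 8. Of all 6566 nuclear gene IDs in the lists, none had more peaks.

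The 5 long genes next in number of peaks were ANKRD17, SMG1, NFIA, EIF4G3 and TLE4. ANKRD17, which encodes an ankyrin repeat protein, had 26, 21 and 38 peaks, or 15.3 per 100 kb, and SMG1, the kinase of nonsense-mediated decay, had 21, 23 and 26, or 19.2 per 100 kb. NFIA, a transcription factor gene, had 19, 14 and 36 peaks, or 5.97 per 100 kb. EIF4G3, a translation initiation factor gene, had 12, 21 and 34, or 6.03 per 100 kb, and TLE4, a transcriptional corepressor gene, had 13, 15 and 38, or 14.2 per 100 kb. All 5 lay below SLIT2 in every replicate, and their highest number, 38, was below the lowest of SLIT2, 83.

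**Figure D5:**
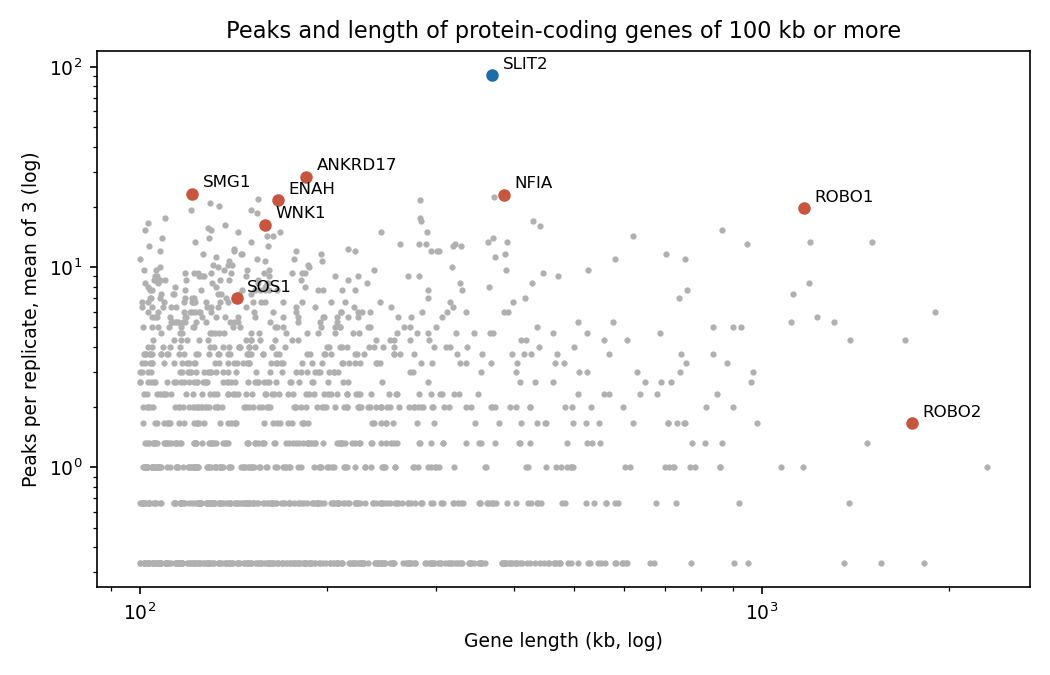
Gene length (kb, log scale, horizontal) and peaks per replicate (mean of 3, log scale, vertical) for protein-coding genes of 100 kb or more with a peak. SLIT2, in blue, lies above all other points at 91.0 peaks. ROBO1, ROBO2, ENAH, ANKRD17, SMG1, NFIA, SOS1 and WNK1 are in red, and all other genes are in grey.

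The genes whose pattern was most like that of SLIT2 were ANKRD17, ENAH, USP9X, WNK1 and NCKAP1. Likeness was the distance over 3 measures, namely peaks per 100 kb, highest read number and share of peaks overlapped in another replicate, among 47 other long genes with 10 or more peaks in every list. ANKRD17 was nearest, with 15.3 peaks per 100 kb, a mean highest read number of 19.7 ± 6.66 and 30.0% ± 8.55 of peaks overlapped (SD, n = 3), beside 24.7, 24.3 ± 6.35 and 37.6% ± 3.05 in SLIT2. These genes differ in where their peaks lie. The first 50% of the gene held 54.1% of the peaks of ANKRD17, 10.8% of those of ENAH, 39.7% of those of USP9X, 16.3% of those of WNK1 and 47.6% of those of NCKAP1, against 84.6% in SLIT2, over all 3 lists.

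SLIT proteins act through ROBO receptors, which signal through SRGAP proteins and the actin regulator ENAH, among others. Of 26 genes of this pathway, 13 held a peak in any replicate and 4 held a region of all 3 replicates, namely ENAH, CDC42, RHOA and RAC1. These shares, 50.0% and 15.4%, stand beside 27.9% and 6.01% of all protein-coding genes. Of the 15 pathway genes of 100 kb or more, 8 held a peak and 1 held a region of all 3 replicates. Among all protein-coding genes of that length, 44.1% held a peak and 7.60% such a region. The list was drawn up with earlier results of these data known, its genes differ in length and RNA level, and no test is attached.

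Of the other ligands, neither SLIT1 nor SLIT3 held a peak in any replicate, although SLIT3 spans 639 kb. NTN1, the gene of the attractant netrin-1, held none either. SLIT2 was thus the only 1 of the 3 SLIT genes with a peak in these lists.

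Among receptors, ROBO1, with 1171 kb, had 19, 15 and 25 peaks, or 1.68 per 100 kb. Its read numbers were at most 4, 5 and 7, it held no region of all 3 replicates, and none of its 59 peaks lay in the first 50% of its RefSeq interval. ROBO2, with 1743 kb, had 2, 0 and 3 peaks, and ROBO3, ROBO4, CXCR4 and the netrin receptor gene DCC had none. ROBO1 therefore also held many weak peaks, at a lower number per 100 kb than SLIT2 and all outside the first 50% of its interval. Only gene intervals were used, without the starts of single transcripts. Where these peaks lie along the ROBO1 RNA of these cells was therefore not tested. The coreceptor genes GPC1 and SDC1 held no peak, and DAG1, the gene of dystroglycan, which binds SLIT, held 1.

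Downstream of the receptors, ENAH, which promotes actin filament growth, had 24, 20 and 21 peaks, or 13.0 per 100 kb. It held 6 regions of all 3 replicates, all in the last 20% of the gene, and the strongest, at chr1:225495550-225495673, had read numbers of 21, 23 and 25. ENAH and SLIT2 thus had like highest read numbers, with the peaks in opposite parts of the gene. The GTPase gene RHOA had 3, 6 and 5 peaks and 2 such regions, CDC42 had 4, 4 and 6 peaks and 2, and RAC1 had 2, 2 and 2 peaks and 1, at chr7:6403392-6403621, with 10, 5 and 14 reads. SOS1, an exchange factor gene, had 7, 5 and 9 peaks, and USP33, the gene of a deubiquitinase that binds ROBO1, had 6, 6 and 3, neither with a region of all 3 replicates. ABL1, a kinase gene of the pathway, had 1 in each list. SRGAP3, PAK1 and MYO9B had 1 peak each over the 3 lists, and SRGAP1, SRGAP2, NCK1 and NCK2 had none.

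No peak lay on the minus strand inside the gene, and none lay within 50 kb before or after it on either strand. Every line of the lists carries a gene ID, and whether reads outside annotated genes could have been listed is not given in the sources used here, so nothing is read from these zeros. SLIT2-IT1, a noncoding transcript at chr4:20392189-20394856 inside SLIT2, held 1 peak under another gene ID, ENSG00000248228, at chr4:20392392-20392458 in replicate 3 with 3 reads, and no SLIT2 peak. That peak is on the strand of SLIT2, so its reads cannot be told from those of SLIT2 RNA. Of the genes beyond the 3' end, PACRGL held 1 peak with 3 reads, in replicate 2, and KCNIP4, which encodes a protein that binds potassium channels and spans 1220 kb, held none.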

How the data were processed

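The authors deposited 1 peak list per replicate, on hg38 per the submitters' processing notes, which name bedtools and deepTools without versions. Adapters carried molecular identifiers, per the labels' protocols. Whether they were collapsed, and which aligner and peak caller were run, is not given in the sources used here. A deposited line holds a position, a strand, a p-value from the authors' caller and a name with a gene ID and a whole number, read here as reads. Lists held 15661, 15486 and 17791 distinct peaks. Depth is known only as reads in peaks (99141 to 114203 nuclear-encoded reads per list), and sums of reads are no counts of molecules.

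Lines of other gene IDs were tied to the RefSeq gene (GRCh38.p14) that held at least 90% of their peak centres, on the same strand where one was given: 6137 of 6583 IDs were tied to 1 gene, 217 to several and 229 to none. Regions join peaks of 1 strand that share at least 1 bp. Gene means are over 3 replicates with their SD. Differences on measures that did not choose SLIT2 were tested by an exact paired permutation test over replicates. Interval functions were tested on simulated data. Named genes were SLIT2, the pathway and neighbour lists, the 5 long genes with most peaks and the 5 most like SLIT2 on 3 measures. Members and lists were chosen with earlier results of these data known. The planned base composition and motif counts were not run, since they need a genome sequence, which was not used here. Alternatives were other overlap rules, stricter lists, read minimums, gene length limits and each replicate left out. Work used Python 3.11.15, pandas 2.3.3, numpy 2.4.6 and scipy 1.17.1.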

Additional observations from a re-analysis of the deposited data

How the results depend on the processing

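Of 55 alternative values for 9 results, 35 stayed within the limits set, 19 moved and 1 reversed. For the share in the final 10% and the median width, the limit rested on the exact permutation p and the direction. With 3 pairs or fewer that p cannot fall under 0.25, so only a reversed direction could change the label of these results. Their unchanged labels therefore say nothing on the size of a change. The number of SLIT2 peaks per replicate, 91.0, was 33.7 in stricter lists (the 50% of peaks with the lowest p-values) and 59.3 with read numbers of 4 or more, and 84.5 to 95.0 with 1 replicate left out. The 13 regions of all 3 replicates became 7 with an overlap of 50% of both peaks, 3 in the stricter lists, 8 with read numbers of 4 or more and 44 when 2 replicates sufficed, and 22 to 25 regions were shared by both lists left when 1 was left out. The overlapped share, 25.8%, was 15.2% with 50% of both peaks, 28.4% with read numbers of 4 or more and 31.4% when peaks within 100 nt counted, and 24.3% to 27.0% with 1 replicate left out. The median spacing, 1763 bp, was 2600 bp with read numbers of 4 or more and 1704 to 1848 bp with 1 replicate left out. The share of nuclear-encoded reads, 0.416%, was 0.298% in the stricter lists. SLIT2 exceeded other long genes in overlapped share by 9.32 percentage points, by 4.63 with 50% of both peaks, by 12.5 against genes of 200 kb or more, by 7.14 at read numbers of 4 to 5 alone, a setting chosen after seeing the data, and by 8.29 to 10.6 with 1 replicate left out. The share in the final 10% ranged from 1.18% to 2.67%, lower than in other long genes under each alternative run for it. SLIT2 stayed first among long genes per 100 kb, among genes of 200 kb or more and with each replicate left out, and its place was not computed in the stricter lists or at read numbers of 4 or more. The difference in median width, -2.50 nt, was 5.50 nt in the stricter lists, added after seeing the data, with an exact permutation p of 0.500 in both. The cause of these moves was not tested. No paired analysis was possible because the labels give 1 group, so samples could not be paired between groups, and the paired tests above pair SLIT2 with other long genes within each list. The median SLIT2 peak had 4 reads, so single weak peaks rest on few reads.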

Other observations

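Among other genes of 100 kb or more with at least 30 peaks over the lists, 10 had a larger share of their peaks in the first 50% of the gene than the 84.6% of SLIT2, and they are named here after their values were seen. EPHA6, an ephrin receptor gene, had 100% of its peaks there, RFC3, a subunit of the replication clamp loader, 96.9%, DYNC2H1, the heavy chain of a ciliary dynein, 95.2%, and UBE2E2, a ubiquitin-conjugating enzyme gene, 95.0%. CTBP2, a transcriptional corepressor gene, had 94.4%, NFIA 94.2%, RAD51B, a homologous recombination gene, 91.3%, and DYRK1A, a kinase gene, 89.5%. POLA1, the catalytic subunit of DNA polymerase alpha, had 88.9% and MLLT3, a gene of the elongation machinery, 87.2%. These shares rest on RefSeq gene intervals, not on the transcripts made in these cells. These genes held far fewer peaks per length than SLIT2, from 1.37 per 100 kb in EPHA6 to 7.88 in DYRK1A, against 24.7 in SLIT2. The other protein-coding genes of 100 kb or more held 5355 peaks in replicate 3, against 4167 and 4034 in replicates 1 and 2. All 10 genes likewise had more in replicate 3, with 24 in CTBP2 against 6 and 6, and 26 in MLLT3 against 7 and 6. SLIT2 had 104 in replicate 3 against 86 and 83.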
